A study of Mus musculus with 18 samples.

Results

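MiR-22 is a microRNA (miRNA), a short RNA cut from a hairpin precursor, and both of its arms were followed here in mouse knee cartilage after joint injury. The 2 members, mmu-miR-22-3p and mmu-miR-22-5p (the prefix marks the mouse), were the entries of that name among the 1412 mature miRNAs counted, and both were among the 428 miRNAs that passed the filter on low counts. The libraries came from femoral condyle cartilage caps of male wild-type C57bl6 mice, 12 weeks old when they entered the experiment, and each library was pooled from several mice. In the injured animals a single mechanical load ruptured the anterior cruciate ligament (ACL) of the right knee, and the left knee served as the contralateral control. There were 3 libraries each of day 1 contralateral, day 1 injured, day 7 contralateral and day 7 injured knees, and 6 libraries of naïve knees from mice without injury, labelled as day 7. The labels tie no library to its pool of mice. The study took 12 injured mice at day 7 and 6 at day 1 for the same number of libraries. Its scheme gives partial loss of cartilage at day 7 as the reason for the larger pools. Pool size and this loss therefore differ between day 7 and the other groups, and cannot be told apart from the effect of the group. By the study's scheme the 6 naïve libraries are separate pools of left and right knees from only 6 mice, so naïve libraries share animals, as do the injured and contralateral libraries of a day. The tests below treat libraries as independent, so an SD over the naïve libraries is not the spread between animals and p-values that rest on that group are too small.

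When a miRNA hairpin is processed, one arm is usually loaded into an Argonaute protein and kept while the other is mostly degraded, and the loaded arm recognises target messages through its seed near the 5′ end. MiR-22 is expressed broadly, with heart and skeletal muscle among its best known sites, and in human osteoarthritic chondrocytes it has been linked to repression of PPARA, a regulator of lipid metabolism, and BMP7, a growth factor that favours cartilage matrix synthesis. A change in the ratio of the arms of a hairpin is a way in which processing or stability of a miRNA can be seen to differ between samples.

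The mature sequences are shown because the arms are separate RNAs with different seeds, so that a count of one says nothing of the targets of the other. They are given 5′ to 3′ with the seed (bases 2 to 8) in capitals, from RefSeq (GRCm38.p6), where both members matched an entry.
miR-22-3p: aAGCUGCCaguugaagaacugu
miR-22-5p: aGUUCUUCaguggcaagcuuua
Among 1679 mature mouse miRNAs of RefSeq, 0 others carried the seed of either arm. Both arms were 22 bases long, with 45.5% G and C in miR-22-3p and 40.9% in miR-22-5p.

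The hairpin gene Mir22 lies on chromosome 11, plus strand, at chr11:75463716-75463810 (GRCm38), and is 95 bases long. miR-22-5p occupied bases 19 to 40 of the hairpin (75463734 to 75463755) and miR-22-3p bases 57 to 78 (75463772 to 75463793). The GENCODE annotation places the whole hairpin inside an exon of both transcripts of the host gene Mir22hg, a non-coding RNA at 75461539 to 75466676, and inside an exon of the Tlcd2 transcript Tlcd2-203. The arms pair in the precursor, and their longest run of uninterrupted complementary bases was 9 long, from base 1 to base 9 of miR-22-5p and from base 12 to base 20 of miR-22-3p. These are the bases in capitals here.
miR-22-5p, paired run: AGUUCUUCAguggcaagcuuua
miR-22-3p, paired run: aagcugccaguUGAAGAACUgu
The run holds the seed of miR-22-5p and lies outside the seed of miR-22-3p.

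The libraries held 758388 to 4088852 counts over all miRNAs and detected 604 to 859 of them. Replicates of a group differed by far more than sampling noise in all 27 replicate pairs (chi-square of 49.1 to 1129 per degree of freedom). 1 library, replicate 1 of day 7 contralateral, stood apart from the other 17. Its normalised values lay a median of 0.68 on the log2 scale from the medians over all libraries, against 0.14 to 0.48 in the others, and 52 of its 111 hairpin arm ratios were off by 2-fold or more, against 4 to 22. Levels are given as CPM, the count of a miRNA relative to the total of its library, after scaling by trimmed means (TMM). MiRNAs known from skeletal muscle took 7.85% to 29.0% of all counts. The cartilage-enriched miR-140-5p averaged 4848 CPM in the naïve libraries. The injured libraries of day 7 held less of the erythroid list, at 5081 to 7028 summed CPM against 10449 to 15996 in the naïve libraries. No arm of any marker list was at 0 in every library.

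MiR-22-3p was one of the more abundant miRNAs of the tissue, and miR-22-5p was measured at a far lower level. CPM counts reads with no correction for length, since mature miRNAs are of nearly the same length. In the 6 naïve libraries miR-22-3p ranged from 4424 to 9250 CPM with a median of 7380, and averaged 7225 ± 1683 CPM (SD, n = 6). It took 0.383% to 1.17% of all counts there. The mean placed it 31st of the 428 miRNAs, after let-7b-5p (7432 CPM) and miR-21a-5p (7430 CPM) and before miR-125a-5p (6891 CPM) and let-7d-5p (5190 CPM). The gaps to the first 3 of these neighbours were smaller than the SD of miR-22-3p itself, so their order is not resolved.

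MiR-22-5p ranged from 321 to 543 CPM in the naïve libraries with a median of 454, and averaged 439 ± 82.1 CPM (SD, n = 6). This placed it 102nd, level with miR-144-5p, an erythroid miRNA at 439 CPM, and next to miR-541-5p at 469 CPM. The 2 entries below it, let-7a-1-3p and let-7c-2-3p, had the same counts as each other in every naïve library. Over all 18 libraries the rank of miR-22-3p ran from 16 to 41 and that of miR-22-5p from 89 to 125, so the ranges of the arms did not meet. MiR-22-5p was counted 361 to 1950 times per library, and neither arm was near the limit of detection.

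After injury the values of miR-22-3p overlapped between every pair of groups. At day 7 the injured knees gave 10261, 7070 and 8681 CPM and the contralateral knees 13655, 5598 and 7870 CPM. At day 1 the injured knees gave 6661, 7494.5 and 5197 CPM and the contralateral knees 8492, 3913 and 7403 CPM. The highest of the 18 values was the day 7 contralateral library that stood apart, and the lowest were a day 1 contralateral and a naïve library (4424 CPM).

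The group means of miR-22-3p ordered as day 7 contralateral (9041 ± 4154 CPM), day 7 injured (8671 ± 1595), naïve (7225 ± 1683), day 1 contralateral (6603 ± 2392) and day 1 injured (6451 ± 1163; SD, n = 3 in each but the naïve group). No pair of neighbours in this order differed by more than the larger SD of the pair. The rank of the group mean ran from 22 to 32.

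MiR-22-5p showed a different order of the groups and as much overlap. At day 7 the injured knees gave 507, 349 and 583 CPM and the contralateral knees 248, 509 and 539 CPM. At day 1 the injured knees gave 528, 401 and 648 CPM and the contralateral knees 544, 354 and 412 CPM. The library that stood apart held the lowest value of miR-22-5p and the highest of miR-22-3p. The means were 525.8 ± 123 CPM in day 1 injured, 480 ± 118.96 in day 7 injured, 439 ± 82.1 in naïve, 437 ± 97.1 in day 1 contralateral and 432 ± 160 in day 7 contralateral knees, and again no neighbours differed by more than the larger SD of the pair.

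**Figure D1:**
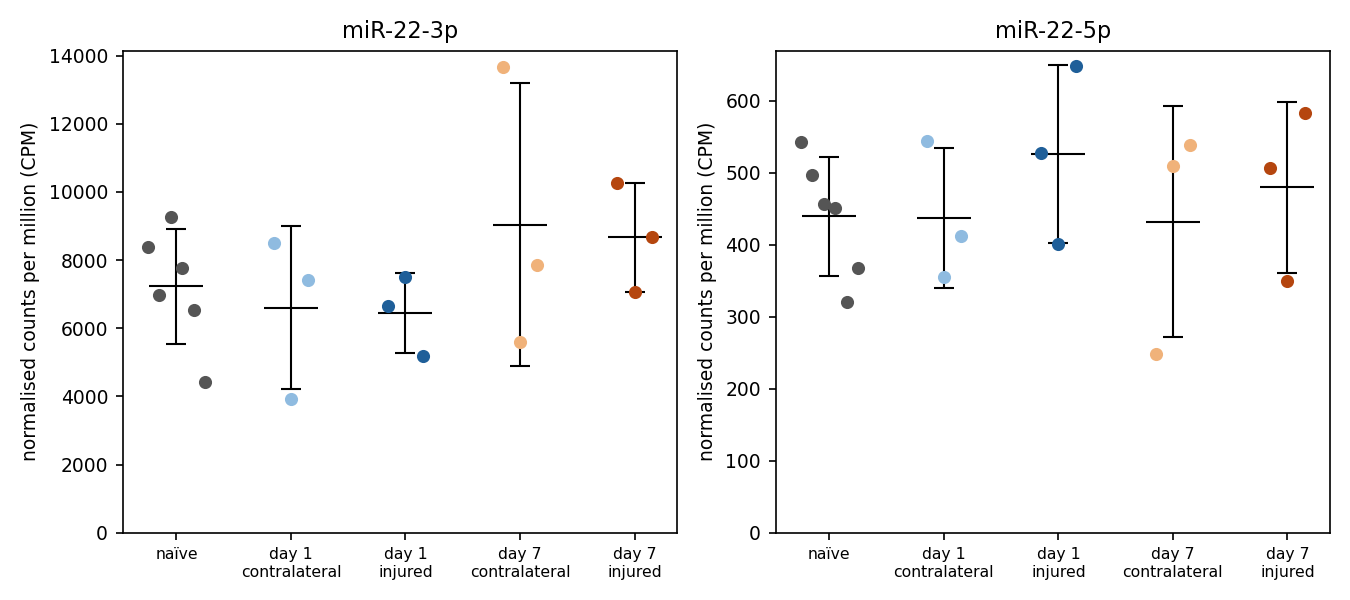
Normalised CPM of miR-22-3p (left) and miR-22-5p (right) in each of the 18 libraries, by group; points are libraries, horizontal bars are means and whiskers are 1 SD. In both panels every group overlaps the others, and the day 7 contralateral library at 13655 CPM of miR-22-3p is the one at 248 CPM of miR-22-5p.

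Neither arm passed the test in any of the 8 comparisons of the design. In day 7 injured against naïve knees miR-22-3p differed by a log2 fold change of 0.27 ± 0.29 (SE, 95% confidence interval -0.33 to 0.88, limma adjusted p = 0.582), while 18.2% of all miRNAs passed. MiR-22-5p differed by 0.12 ± 0.27 (-0.45 to 0.68, limma adjusted p = 0.808). By size of change miR-22-3p was 282nd and miR-22-5p 374th of the 428 miRNAs in this comparison. The groups overlapped for both arms, whereas 24.1% of all miRNAs had no overlap. An exact permutation test over libraries gave p = 0.238 for miR-22-3p and p = 0.571 for miR-22-5p, two-sided, where the smallest p that 3 against 6 libraries allows is 0.0238.

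Against the contralateral knees of the same day the arms also did not pass. This comparison is unpaired although the libraries of these groups share animals, so it does not give the difference between the knees of an animal. The log2 fold change of miR-22-3p was 0.035 ± 0.33 (-0.65 to 0.72, limma adjusted p = 0.957) and that of miR-22-5p 0.19 ± 0.31 (-0.46 to 0.84, limma adjusted p = 0.771), where 14.7% of all miRNAs passed and 26.6% had no overlap. Without the library that stood apart these became 0.43 (limma adjusted p = 0.475) and -0.092 (limma adjusted p = 0.920). The exact permutation test gave p = 1 for miR-22-3p and p = 0.7 for miR-22-5p, and 3 against 3 libraries cannot go below 0.1.

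At day 1 no miRNA passed in injured against naïve knees (0 of 428 by limma at an adjusted p of 0.05, 8 at an unadjusted p under 0.05, and 0 by edgeR or DESeq2), so the share called was 0%, and in 1.4% the groups did not overlap. MiR-22-3p differed by -0.15 ± 0.29 (-0.76 to 0.46, limma adjusted p = 0.992) and miR-22-5p by 0.26 ± 0.27 (-0.31 to 0.82, limma adjusted p = 0.992) on the log2 scale. Against day 1 contralateral knees the differences were 0.031 ± 0.34 (-0.67 to 0.73) for miR-22-3p and 0.27 ± 0.31 (-0.38 to 0.92) for miR-22-5p, both at a limma adjusted p of 0.997. Again 0% of miRNAs were called, by edgeR and DESeq2 too, with 8 at an unadjusted p under 0.05 and 8.64% without overlap.

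The contralateral knees also did not separate from the naïve knees, which asks whether the uninjured leg of an injured mouse can stand for an untouched one. At day 7 the log2 difference was 0.24 ± 0.29 (-0.36 to 0.84) for miR-22-3p and -0.075 ± 0.27 (-0.64 to 0.49) for miR-22-5p, with limma adjusted p of 0.788 and 0.933. At day 1 it was -0.18 ± 0.29 (-0.79 to 0.43) and -0.012 ± 0.27 (-0.58 to 0.55), with a limma adjusted p of 0.996 for both. In these comparisons limma called 0% of miRNAs, with 23 and 4 at an unadjusted p under 0.05 and no overlap in 1.87% and 1.17%. edgeR called 0 in both and DESeq2 1 at day 7 and 0 at day 1.

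The largest fitted difference of either arm was that of miR-22-3p between day 7 and day 1 injured knees, at 0.42 ± 0.34 (-0.28 to 1.121, limma adjusted p = 0.460), and it did not pass where 15.7% of miRNAs did (34.3% had no overlap). MiR-22-5p differed by -0.14 ± 0.31 (-0.79 to 0.51, limma adjusted p = 0.832) in that comparison. The injury effect at day 7 minus that at day 1, taken against the contralateral knees, was 0.0040 ± 0.47 (-0.98 to 0.99) for miR-22-3p and -0.075 ± 0.44 (-0.996 to 0.85) for miR-22-5p, where 6.78% of miRNAs passed. The intervals of the simple comparisons reached at most 1.121 on the log2 scale, so changes within that width were not resolved with 3 libraries a group.

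**Figure D2:**
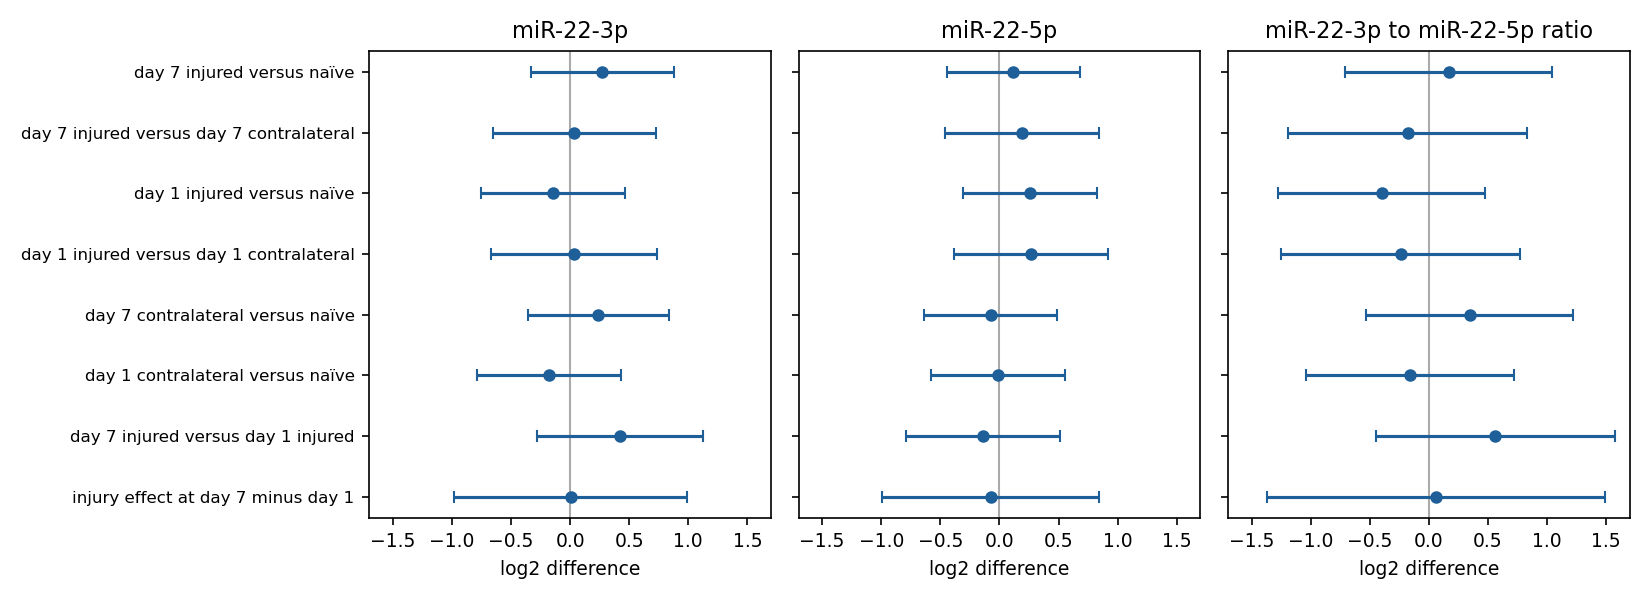
Log2 differences of miR-22-3p (left), miR-22-5p (middle) and the miR-22-3p to miR-22-5p ratio (right) for the 8 comparisons, as fitted by limma; points are estimates and whiskers are 95% confidence intervals. Every interval holds 0, and those of the arm ratio are wider than those of the single arms.

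MiR-22-3p made up most of the counts of the hairpin in every library. In the naïve libraries there were 12.1 to 20.3 counts of miR-22-3p for each count of miR-22-5p, with a median of 16.4 and a mean of 16.6 ± 3.35 (SD, n = 6), so that miR-22-5p held 5.88% ± 1.16 of both arms. This is a ratio of sequenced counts. Whether both arms were captured by the library preparation at the same rate was not tested. Of 111 hairpins with both arms tested, 44 had more counts of the 3p arm and 67 more of the 5p arm in naïve cartilage, and miR-22 was 16th from the most 3p-rich. Its geometric mean ratio of 16.3 lay next to miR-342 (16.7) and miR-151 (23.6) above it and miR-152 (13.1) and miR-221 (12.97) below it. The spread of the log2 ratio over the naïve libraries was 0.30 (SD) for miR-22 against a median of 0.50 over the 111 hairpins, and 15 hairpins had a smaller one. Pooled within groups over all 18 libraries, its SD of 0.598 was close to the median of 0.602 and was 58th from the largest. Over all libraries the ratio was thus not steadier than that of most hairpins. This pooled SD includes the day 7 contralateral library that stood apart. The SD of the log2 ratio was 1.24 in that group, against 0.25 (day 7 injured) to 0.61 (day 1 injured) in the other groups.

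**Figure D3:**
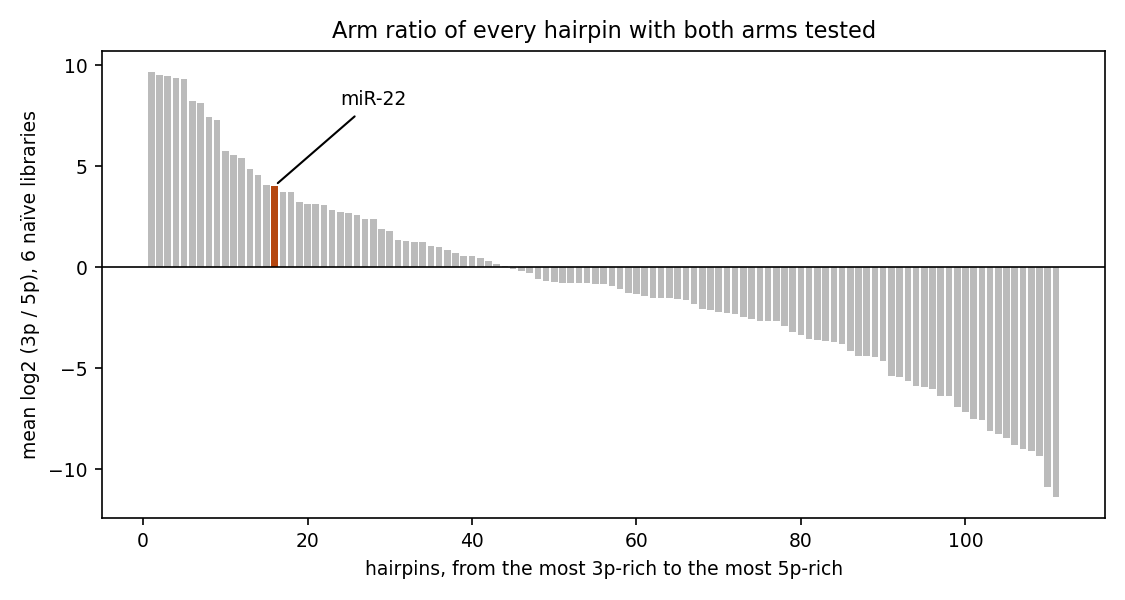
Mean log2 ratio of the 3p to the 5p arm over the 6 naïve libraries for each of the 111 hairpins with both arms tested, ordered from the most 3p-rich to the most 5p-rich; bars above 0 have more counts of the 3p arm. MiR-22 (marked) is 16th, at a log2 ratio of 4.02.

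The arm ratio did not shift with injury beyond the spread between libraries. The 3 day 7 injured libraries had 20.2412, 20.237 and 14.9 counts of miR-22-3p for each of miR-22-5p, and the day 7 contralateral libraries had 55.1, 11.004 and 14.6. At day 1 the injured libraries had 12.6, 18.7 and 8.02, and the contralateral libraries 15.6, 11.04 and 17.97. Apart from the value of 55.1, the 17 libraries ran from 8.02 to 20.3, and the groups overlapped in every comparison.

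In the library at 55.1 the counting error gave a 95% interval of 49.6 to 61.1, from 19883 counts of miR-22-3p and 361 of miR-22-5p (the interval covers counting error only). That library shifted many hairpins. Of its 111 ratios, 21 were higher and 31 lower by 2-fold or more than the median over all libraries, and miR-22 was 26th in size of deviation there. What sets this library apart was not tested. The lowest interval belonged to day 1 injured replicate 3, at 7.57 to 8.49 around 8.02, where miR-22-5p held 11.1% of both arms.

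**Figure D4:**
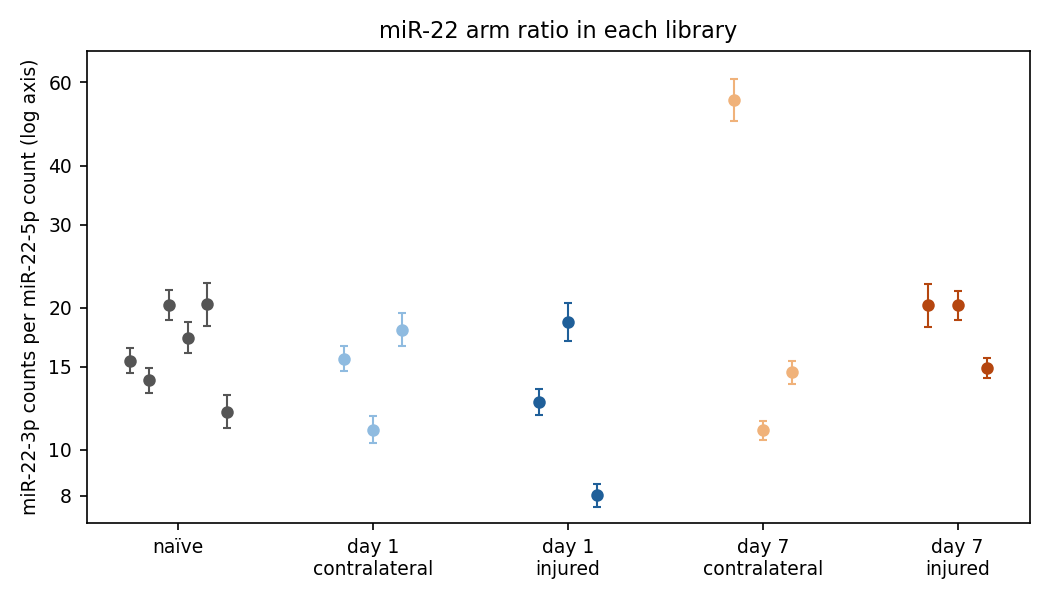
Counts of miR-22-3p for each count of miR-22-5p in every library, by group, on a log axis; whiskers are 95% intervals of counting error only. The intervals are narrow against the spread between libraries, 17 libraries lie between 8.02 and 20.3, and 1 day 7 contralateral library lies at 55.1.

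On the log2 scale the ratio differed by 0.17 ± 0.42 (SE, 95% interval -0.71 to 1.04, limma adjusted p = 0.9503 over 111 hairpins) between day 7 injured and naïve knees, where 1.8% of hairpins passed and 9.91% had no overlap. An exact permutation test over these libraries gave p = 0.524. Against day 7 contralateral knees the difference was -0.18 ± 0.48 (-1.19 to 0.83, limma adjusted p = 0.966), it became 0.53 (limma adjusted p = 0.990) without the library that stood apart, and 0% of hairpins passed (8 at an unadjusted p under 0.05, and 8.11% without overlap). The exact permutation test gave p = 1 with all 6 libraries.

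At day 1 the ratio differed by -0.40 ± 0.42 (-1.27 to 0.48, limma adjusted p = 0.968) from naïve and by -0.24 ± 0.48 (-1.25 to 0.77, limma adjusted p = 0.998) from contralateral knees, where 0% of hairpins passed in either and 2.7% and 7.21% had no overlap. Day 7 against day 1 injured knees gave 0.56 ± 0.48 (-0.45 to 1.58, limma adjusted p = 0.688), where 0.901% of hairpins passed and 22.5% had no overlap. The contralateral knees differed from naïve by 0.35 ± 0.42 (-0.53 to 1.22) at day 7 and -0.16 ± 0.42 (-1.04 to 0.72) at day 1, and the injury effect at day 7 minus that at day 1 was 0.059 ± 0.68 (-1.37 to 1.49). None of these passed, nor did any other hairpin in them (0%), and 1.8% had no overlap with naïve knees at either day.

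The arm ratio of miR-22 was lower in libraries of higher total count. This relation was looked for after the values had been seen. In the 6 libraries of lowest total (758388 to 1410173 counts) the ratio ran from 17.97 to 55.1, in the middle 6 (1592929 to 2226254) from 12.1 to 20.2, and in the 6 of highest total (2450093 to 4088852) from 8.02 to 14.9. With the group means removed, the log2 ratio and the log10 library total had Pearson's r = -0.74 and Spearman's rho = -0.82 over the 18 libraries (permutation p = 0.00013 and 0.00017, or 0.00039 and 0.00051 adjusted over 3 relations). Without the 2 libraries farthest from the median log10 total (day 7 injured replicate 1 and naïve replicate 5), Pearson's r was -0.86, and without the 2 farthest once the group means were removed (day 7 injured replicate 1 and day 1 injured replicate 2) it was -0.82. Without the day 7 contralateral library that stood apart, and with the group means left in, it was -0.75.

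Of the single arms, miR-22-3p CPM was lower in larger libraries (r = -0.61, rho = -0.65, adjusted permutation p = 0.0222 and 0.0162), and the unadjusted permutation p was 0.0126 without the 2 libraries farthest from the median total but 0.0722 without the 2 farthest once the group means were removed. MiR-22-5p had r = 0.46 and rho = 0.39 (adjusted permutation p = 0.115 and 0.173), which did not pass. The 111 hairpins as a whole had no common direction, with 59 negative and 52 positive values of r, a median of -0.062 and a range of -0.74 to 0.82. That of miR-22 was the most negative of them with the group means removed, and 6th from the most negative with the group means left in (r = -0.59). Other hairpins had relations of like size with the group means removed, with r of 0.82 for miR-145a, 0.80 for miR-27a and 0.79 for miR-148a. On the negative side r was -0.73 for miR-214 and -0.71 for miR-30b, so a relation this strong was not particular to miR-22. The permutation p of miR-22 was not adjusted over the 111 hairpins.

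With the log10 library total added to the fit as a covariate, chosen after seeing the data, the ratio differed by 0.24 ± 0.32 between day 7 injured and naïve knees (limma adjusted p = 0.786) and by -0.46 ± 0.38 between day 7 injured and contralateral knees (limma adjusted p = 0.523). The difference between day 7 contralateral and naïve knees moved from 0.35 ± 0.42 to 0.70 ± 0.33 and did not pass (limma adjusted p = 0.233). Library total was not confined to a group, and each injured group held both a small and a large library. What the library total stands for here, such as RNA input or library complexity, was not tested.

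**Figure D5:**
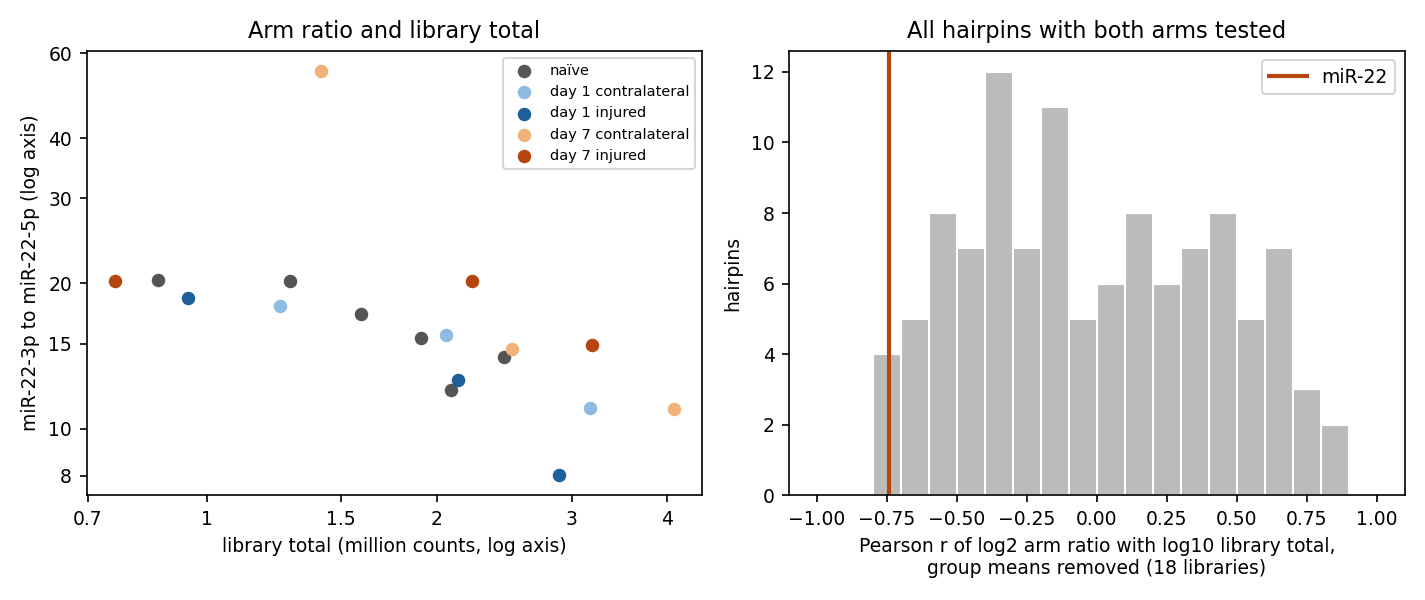
Left, counts of miR-22-3p for each count of miR-22-5p against the library total for the 18 libraries (both axes log), coloured by group. Right, Pearson's r of the log2 arm ratio with the log10 library total, group means removed, for each of the 111 hairpins in bins of 0.1; the line marks miR-22 at -0.74, and the hairpins spread over both signs.

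No relation between the arms was found across libraries. With the group means removed, their log2 CPM had Pearson's r = -0.048 and Spearman's rho = 0.051 over 18 libraries (permutation p = 0.900 and 0.879). Leaving out the 2 libraries farthest from the median of miR-22-3p (day 7 contralateral replicate 1 and day 1 contralateral replicate 2) gave r = 0.34 (permutation p = 0.267). Leaving out the 2 farthest once the group means were removed (naïve replicate 6 and day 1 contralateral replicate 2) gave r = -0.38 (permutation p = 0.457), and scaling by library totals alone gave r = 0.33 (permutation p = 0.286), so the sign depended on the libraries kept and on the scaling. Set among the 426 other tested miRNAs, miR-22-5p was 216th in likeness to miR-22-3p over the 18 libraries with the group means left in (r = -0.081).

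The spread of either arm within groups was near or below the median of all tested miRNAs. The pooled SD of log2 CPM was 0.44 for miR-22-3p and 0.38 for miR-22-5p, against a median of 0.46 over the 428 miRNAs. Most of these were less abundant than either arm, and miRNAs of like level were not compared. The SDs include the library that stood apart.

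The 5 miRNAs most like each arm over the 18 libraries were not shared between the arms. For miR-22-3p they were miR-1291 (Pearson's r of log2 CPM 0.77, Spearman's rho 0.62), let-7i-3p (0.76 and 0.76), miR-345-5p (0.76 and 0.65), miR-485-5p (0.72 and 0.68) and miR-374b-5p (0.69 and 0.54). The first 4 of these averaged 5.21 to 20.4 CPM over all libraries, far below miR-22-3p. For miR-22-5p they were miR-30e-3p (0.78 and 0.67), miR-30f (0.73 and 0.58), miR-27a-3p (0.73 and 0.68), let-7g-5p (0.69 and 0.52) and miR-24-3p (0.69 and 0.61). These values describe libraries that share depth and composition and were chosen as the highest of 426, so no test was made of them.

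The levels of miR-22 were set beside summed lists of miRNAs known from other cell types, 10 relations in all. None passed after adjustment, the lowest adjusted permutation p being 0.551 for r and 0.437 for rho. The largest under TMM scaling was miR-22-5p with the cartilage list, of miR-140 and miR-455, at r = 0.61 and rho = 0.57 (unadjusted permutation p = 0.0555 and 0.0437), and r was 0.40 without the 2 libraries farthest from the median of miR-22-5p. With library totals only, r was 0.65 for miR-22-3p with the erythroid list and 0.64 with the leukocyte list (unadjusted permutation p = 0.0148 and 0.0269, adjusted permutation p = 0.0896 for both), against 0.21 and 0.15 under TMM scaling. Muscle is a known site of miR-22, and with the skeletal muscle list miR-22-3p had r = -0.0069 and miR-22-5p r = 0.34 (unadjusted permutation p = 0.198 for miR-22-5p). Without the same 2 libraries that were left out for the cartilage list, miR-22-5p had r = 0.60 with the muscle list (unadjusted permutation p = 0.0650). In bulk tissue fewer cells of a type and less of a miRNA per cell cannot be told apart.

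Of the other miRNAs linked to osteoarthritis, the share that passed at day 7 was no higher than that of all miRNAs. The list of these held 47 hairpin names, of which 44 were in the data and gave 94 arms, 69 of them tested. In day 7 injured against naïve knees 10 of the 69 were higher, 2 lower and 57 did not pass, a share of 17.4% beside 18.2% of all miRNAs (14.5% higher and 3.74% lower), with a median log2 fold change of 0.025 (all miRNAs -0.0028). Against the contralateral knees 9 were higher, 0 lower and 60 did not pass, or 13.04% beside 14.7% (13.8% higher and 0.935% lower), with a median of -0.14 (all miRNAs -0.050). At day 1 the count was 0 of 69 in both comparisons (limma).

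The members of this list that passed against naïve knees came from few hairpins, several with both arms. MiR-21a-5p, an abundant miRNA that rises in many injured and fibrotic tissues, stood next to miR-22-3p in naïve cartilage at 7430 CPM and reached 25342 CPM at day 7, a 3.61-fold rise (limma adjusted p = 8.23e-05). Its partner miR-21a-3p was 3.18-fold higher (limma adjusted p = 0.0167). MiR-335-3p rose 12.2-fold and miR-335-5p 5.55-fold (limma adjusted p = 5.93e-07 and 0.00107). MiR-199a-5p, of a family active in mesenchymal cells, was 2.29-fold and miR-199a-3p 2.27-fold higher. The counts of miR-199a-3p were equal to those of miR-199b-3p in 18 of 18 libraries, so the 3p value cannot be assigned to the miR-199a hairpins. Both arms of miR-127, from the imprinted Dlk1-Dio3 cluster, were 3.10-fold (5p) and 2.35-fold (3p) higher. MiR-381-3p of the same cluster was 3.69-fold higher and miR-27b-3p 1.60-fold. MiR-181a-5p was 1.72-fold and miR-103-3p 1.47-fold lower.

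Beside these, the fitted fold of miR-22-3p was 1.21 and that of miR-22-5p 1.08 in the same comparison. The upper ends of their intervals, 0.88 and 0.68 on the log2 scale, lie below the 1.85 fitted for miR-21a-5p and the 1.19 fitted for miR-199a-5p. Both of those miRNAs were named because they passed in this comparison, and the error of their own values is not counted here. Whether either changed more than miR-22 was not tested. The smaller rise of miR-27b-3p, which passed, lies within the interval of miR-22-3p, so a rise of that size was not resolved for this arm. These intervals rest on naïve libraries that share animals and are too narrow. The most abundant member of the list, miR-26a-5p, also did not pass (log2 fold change -0.32 ± 0.27, limma adjusted p = 0.494). Of the marker lists, 4 of 7 erythroid arms were lower in day 7 injured than naïve knees, with miR-486a-5p 2.32-fold lower (limma adjusted p = 0.000673), as was 1 of 8 leukocyte arms, while 0 of 8 skeletal muscle, 0 of 6 vascular and 0 of 4 cartilage arms passed. The 7 erythroid arms came from 4 hairpin names, so they are not independent of each other. Of all miRNAs, 3.74% were lower and 18.2% passed in either direction in this comparison. In lists of 4 to 8 arms, 0 or 1 passing cannot be told from these shares.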

How the data were processed

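The authors trimmed small RNA reads with Trim Galore 0.6.6, aligned them to mature miRBase sequences with Bowtie 1.3.0 and counted them with SAMtools 1.12; the deposited values are raw counts per mature miRNA. Reads are not marked with molecular identifiers. Each library was tied to its sample through the number at the end of its name, because the prefix differs between the counts and the titles. MiRNAs were filtered with filterByExpr (minimum count 10, total 15), scaled by TMM in edgeR 4.0.16 and tested by limma 3.58.1 with voom, on all 18 libraries with 1 mean for each group, with Benjamini-Hochberg adjustment in each comparison at 0.05. The study's term for the mouse pool was left out because the labels do not give the pools. The arm ratio was the log2 of the 3p over the 5p count, each plus 0.5, tested by limma over 111 hairpins. Log2 CPM used a prior count of 2. Correlations used 100000 permutations within groups. The fits were checked on simulated independent counts without shared library shifts or shared animals, so the check does not cover these features of the data. DESeq2 1.42.0 served as an alternative, along with other scalings, filters, weights and each library left out. MiRNAs named besides both arms were the 5 most like each arm, the neighbours in level and in ratio, the osteoarthritis-linked miRNAs past the threshold, and the most abundant miRNA of each list. The members and lists were chosen with earlier results of these data known.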

Additional observations from a re-analysis of the deposited data

How the results depend on the processing

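Of 632 values from alternative settings over the 24 differences (3 measures in 8 comparisons), 0 passed the threshold by limma, edgeR or DESeq2, the lowest adjusted p being 0.203, and 569 kept the direction. Many of the 632 left out a library of neither group compared. This cannot change the fitted difference of the arm ratio, and changes the single arms only through filter, scaling and weights. The 569 are therefore no measure of how firm a direction is. The 63 that turned belonged to 16 differences, whose fitted sizes were at most 0.35 on the log2 scale. The intervals of all 24 differences hold 0, so the data give no direction for those that turned or for the rest. The 10 group means in CPM moved by less than 1 SD under DESeq2 size factors and library totals. The library total as a covariate was added after seeing the data.

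For miR-22-3p, day 7 injured against contralateral knees (0.035) became -0.0055 with every miRNA of at least 1 count kept, -0.060 with edgeR's quasi-likelihood test, -0.070 with DESeq2 and -0.14 with the library total as a covariate. Day 1 injured against contralateral knees (0.031) became -0.094 with library totals only, -0.034 with edgeR, -0.015 with DESeq2, -0.11 with quality weights and -0.030 with the covariate. The injury effect at day 7 minus day 1 (0.0040) became -0.015 with DESeq2 size factors, -0.068 with every miRNA kept, -0.027 with edgeR, -0.054 with DESeq2 and -0.11 with the covariate. For miR-22-5p, day 7 injured against naïve knees (0.12) became -0.021 with library totals only and -0.058 with quality weights, day 7 injured against contralateral knees (0.19) became -0.22 and day 7 contralateral against naïve knees (-0.075) 0.16 with quality weights, and the injury effect at day 7 minus day 1 (-0.075) became 0.019 with library totals only. For the arm ratio, the covariate gave 0.033 for day 1 contralateral against naïve knees and -0.13 for the injury effect at day 7 minus day 1. The cause of these turns was not tested.

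Leaving out each library in turn, miR-22-3p ranged from -0.23 to 0.43 in day 7 injured against contralateral knees, -0.35 to 0.23 in day 1 injured against contralateral knees, -0.12 to 0.54 in day 7 contralateral and -0.46 to 0.12 in day 1 contralateral against naïve knees, and -0.24 to 0.44 in the injury effect at day 7 minus day 1. MiR-22-5p ranged from -0.029 to 0.35 in day 7 injured against naïve knees, -0.092 to 0.44 against day 7 contralateral knees, -0.24 to 0.24 in day 7 contralateral and -0.24 to 0.075 in day 1 contralateral against naïve knees, -0.21 to 0.19 in day 7 against day 1 injured knees, and -0.33 to 0.20 in the injury effect at day 7 minus day 1. The arm ratio ranged from -0.63 to 0.53 in day 7 injured against contralateral knees, -0.54 to 0.075 in day 1 injured against contralateral knees, -0.36 to 0.80 in day 7 contralateral and -0.31 to 0.041 in day 1 contralateral against naïve knees, and -0.40 to 0.76 in the injury effect at day 7 minus day 1.

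The correlation of the arms (-0.048) became 0.33 with library totals only and 0.024 with skeletal muscle miRNAs removed. With library totals only, r turned to -0.15 for miR-22-5p with the skeletal muscle list, 0.031 with the erythroid list and -0.24 with the vascular list, and to 0.42 for miR-22-3p with the vascular and 0.31 with the cartilage list, and it rose from 0.21 to 0.65 with the erythroid and from 0.15 to 0.64 with the leukocyte list without passing. The relation of miR-22-3p with the library total kept its r (-0.61) but missed the threshold (permutation p = 0.0722) without day 7 injured replicate 1 and day 1 injured replicate 2, the 2 libraries whose total lay farthest out once the group means were removed. No paired analysis was possible because the labels give no pairing number for the libraries or their pools of mice.

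MiR-22-5p was counted 361 to 1950 times per library. The counting intervals do not cover the relation of the arm ratio with the library total, and whether 3 libraries a group or the library total limits the comparisons more was not tested.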
